A study of Homo sapiens with 16 samples.

Results

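Long terminal repeats (LTRs) of the ERV1 class were examined for the active histone mark H3K27ac in a human monocytic leukemia cell line, THP-1. The cells were with or without USP18, an isopeptidase that removes the ubiquitin-like protein ISG15 from other proteins. The members were the 4683 of 151654 measured regions whose detailed annotation placed them in a repeat of class LTR and family ERV1, 15 of them with a question mark after the family name. They carried 274 repeat names, of which MER41 names covered 311 regions and LTR12 names covered 186 regions. By annotation 3375 regions were intergenic and 1308 were intronic. The median distance to the nearest transcription start site (TSS) was 37874 bp.

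WT cells were Cas9-only THP-1 cells, and USP18-/- cells were THP-1 cells edited by CRISPR at USP18. Both were left untreated or were given IFNα at 1000 U/ml, with a 6 h exposure, so that 4 groups of 2 libraries were compared. According to the methods, edited lines were grown from single sorted cells, so genotype and clone cannot be told apart. The methods call the 2 libraries of a group biological replicates.

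ERV1 elements are remnants of gammaretrovirus-like insertions, and most survive as solitary LTRs, the part of a provirus that holds its promoter and enhancer. LTRs can act as enhancers and promoters of cellular genes, and MER41 and LTR12 are known examples near immune genes. IFNα signals through a receptor to the transcription factor complex ISGF3, which binds the interferon-stimulated response element (ISRE). The gamma-activated site (GAS) is a further DNA element of IFN signaling. USP18 is induced by IFN and restrains signaling at the IFN receptor.

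H3K27ac was counted in a window of 1000 bp at each ATAC-seq peak, so that levels of single regions can be compared per length. The libraries held 9082433 to 12971831 rounded counts in all regions. ERV1 regions took 2.06% to 2.13% of the tags in the 4 WT libraries and 1.65% to 1.78% in the 4 USP18-/- libraries. Levels are given as CPM, tags scaled to library size after TMM normalization. Summed over all regions, mean CPM was 944025 in untreated and 942473 in IFN treated WT cells. In USP18-/- cells it was 1042066 untreated and 1141602 with IFN, to be set beside the sums of repeat names. A region was tested when 2 or more of the 8 libraries reached 10 counts, which kept 3771 ERV1 regions (80.5%), against 81.3% of all regions. The edgeR quasi-likelihood test was used, p-values were adjusted by Benjamini-Hochberg over 123276 regions, and a region was called at an adjusted p under 0.05 and a change over 2-fold. H3K27ac does not test the edit itself, and the region at the USP18 TSS rose with IFN in WT cells (log2 fold change 1.09, SE 0.16, edgeR adjusted p = 1.5e-06) and in USP18-/- cells (2.45, SE 0.14, edgeR adjusted p = 4.8e-27). Of 9 myeloid markers 8 had a TSS region, from CSF1R at 1.55 to 3.27 CPM and CD14 at 3.18 to 8.83 CPM to SPI1 at 64.6 to 131 CPM, while MS4A1, CD3D, CD3E, EPCAM and GATA1 had no region at their TSS. The B cell, T cell, epithelial and fibroblast markers with a TSS region lay between 0.0888 (DCN) and 7.51 CPM (CD79A).

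Sequences are shown first for the repeat names on which the results turn, because copies of a name share letters. All are from hg38, 5′ to 3′, taken from the central 200 bp of the windows. LTR71A was the name with the largest median IFN effect in USP18-/- cells, and 33 of its 62 regions held the ISRE letters TTCNNTTTC on either strand. Stretches around the match that recurred among its copies are printed in the direction of the motif, with the match in capitals.
LTR71A stretch in 4 regions, ending in c: aagtTTCAATTTCccaataac
LTR71A stretch in 4 regions, ending in t: aagtTTCGATTTCccaataat
With IFN in USP18-/- cells, 3 of the 4 regions with the first and 4 of 4 with the other rose. In 32 of the 62 regions the match was extended by a T to the full ISRE of TTTCNNTTTC, which was present in 5.43% of all 151654 regions.

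LOR1 names held another ISRE-like run, TTTCNNTTC, which was searched for after it was seen in them. It occurred in 128 of 171 LOR1 regions (74.9%), against 11.3% of all regions.
LOR1 stretch in 20 regions: taagTTTCAGTTCcttgatac
LOR1 stretch in 16 regions: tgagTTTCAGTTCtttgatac
Of the tested regions 4 of 20 with the first and 4 of 14 with the other rose. MER41B held the GAS letters TTCNNNGAA in 101 of 159 regions, with differing flanks. A stretch is printed in the direction that sorts first, since GAS reads the same on both strands.
MER41B stretch in 8 regions: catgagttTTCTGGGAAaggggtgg
Of 7 tested regions with this stretch 3 rose, and over recurring stretches not shown the count lay between 0 of 4 and 6 of 7. The matched letters of the motifs searched here may overlap each other, and a match is a description of these letters only.

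With IFN in WT cells, few ERV1 regions changed. H3K27ac rose at 25 and fell at 3 of 3771 tested regions, which is 0.66% and 0.08%. Over all regions tested the shares were 0.344% higher and 0.0381% lower. LTR71A took 13 of the 25 rises. Its count was 6 without either untreated WT library, 8 without either IFN treated WT library and 9 with DESeq2. No region with a MER41 or LTR12 name was called in either direction, and their median log2 fold changes were 0.06 and -0.02. At an unadjusted p under 0.05 in edgeR's test, 14 MER41 regions were higher and 8 lower, and 5 LTR12 regions were higher and 3 lower. DESeq2 called no region of these names either, and 17 ERV1 regions higher and 0 lower in all.

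The region with the largest rise in WT cells was an LTR71A copy between genes on chromosome 13 (chr13:90293640-90294640), nearest to MIR622 at 62958 bp. It gave 1.03 and 1.27 CPM in WT cells without and 9.61 and 9.85 CPM with IFN. The USP18-/- libraries held 1.83 and 1.54 CPM, and with IFN they held 36.7 and 30.7 CPM. IFN treated libraries lay above untreated libraries in both genotypes. The log2 fold change was 3.06 in WT cells (SE 0.27, edgeR adjusted p = 3.6e-15) and 4.31 in USP18-/- cells (SE 0.20, edgeR adjusted p = 1.1e-32). A MER57F copy lay in an intron of VRK2, a serine/threonine kinase gene, 1331 bp from the TSS. It had a log2 fold change of 2.97 in WT cells (SE 0.35, edgeR adjusted p = 7.2e-10) and of 4.23 in USP18-/- cells (SE 0.34, edgeR adjusted p = 3.3e-19). The part of promoter signal in it was not tested. A MER65B copy at -1166 bp from the TSS of IFI27, a classical IFN-stimulated gene (ISG), went from 0.723 and 0.726 CPM to 5.55 and 5.13 CPM in WT cells. In USP18-/- cells it went from 0.960 and 0.674 CPM to 8.34 and 11.9 CPM.

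In WT cells 3 regions fell. An LTR10E copy on chromosome 2 nearest to LOC100506474 went from 4.55 and 4.81 CPM to 1.49 and 1.95 CPM (log2 fold change -1.44, SE 0.30, edgeR adjusted p = 0.0021). An LTR10E copy in an intron near PRMT3, a protein arginine methyltransferase gene, had a log2 fold change of -1.07 (SE 0.28, edgeR adjusted p = 0.031). A MER61-int copy nearest to LINC00971 had a log2 fold change of -1.01 (SE 0.22, edgeR adjusted p = 0.0047). The call at LOC100506474 was lost without WT replicate 2 or IFN treated WT replicate 1, and that at PRMT3 without any 1 of the 4 WT libraries. The call at LINC00971 was lost under 8 alternatives, among them DESeq2, which gave no adjusted p for the other two.

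**Figure D1:**
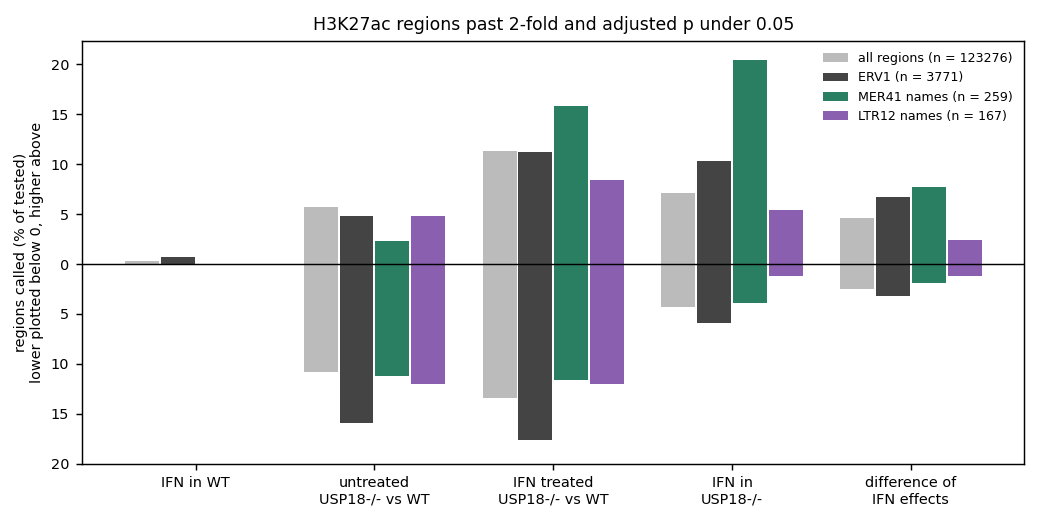
Share of tested regions called higher (bars above 0) or lower (bars below 0) in each of 5 comparisons, in percent of the regions tested, for all regions, ERV1, MER41 names and LTR12 names. MER41 names reached 20.5% higher with IFN in USP18-/- cells, where all regions were at 7.14% and LTR12 names at 5.39%.

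With IFN in USP18-/- cells, H3K27ac rose at 388 ERV1 regions and fell at 223. These were 10.3% and 5.91% of those tested, where all regions had 7.14% higher and 4.28% lower. Regions over 3000 bp from a TSS had 7.90% higher and 4.91% lower. LTRs of the ERVL and MaLR families, the other large LTR groups, had 5.39% higher and 5.04% lower of 7520 tested. Both genotypes shared 23 of the 25 rises seen in WT. Of the 388 raised regions, 26 held under 10 counts in every library of the other 3 groups. They were tested only through the libraries in which they were high. The median over ERV1 was -0.03 on the log2 scale. LTR71A, MER57E, MER57F, LOR1 and MER41B, grouped after their values were seen, gave 162 of the 388 rises from 395 of the 3771 tested regions.

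LTR71A led the 48 repeat names with at least 20 tested regions. Its regions lay on 21 chromosomes, and 45 of 58 tested regions rose and none fell, with a median log2 fold change of 2.75 (interquartile range 1.77 to 3.42). Summed over its 62 regions, H3K27ac was 262.6 and 253.3 CPM in WT cells without and 453.9 and 439.4 CPM with IFN. In USP18-/- cells it was 190.4 and 186.3 CPM without and 1099 and 1029 CPM with IFN. The 4 groups did not overlap, and untreated USP18-/- cells were the lowest. With 2 libraries a group, an exact permutation test of such a sum cannot go below p = 0.33, so sums are given without a test. The count of raised LTR71A regions lay between 38 and 46 under the alternatives tried.

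An LTR71A copy on chromosome 22 (chr22:20296122-20297122), 23483 bp from the TSS of DGCR6L, a gene of the DiGeorge syndrome region, held 10.4 and 9.89 CPM in untreated WT cells. It rose to 36.8 and 38.8 CPM with IFN. In untreated USP18-/- cells it held 0.524 and 0.962 CPM, and IFN brought it to 21.8 and 21.1 CPM. Its log2 fold change with IFN was 4.85 in USP18-/- cells (SE 0.24, edgeR adjusted p = 4.4e-31), yet its level with IFN stayed below that of WT cells (log2 fold change -0.81, SE 0.13, edgeR adjusted p = 7.4e-08). An LTR71A copy on chromosome 1 nearest to PLPPR4 showed another order. It held 0.436 to 2.18 CPM in the 6 libraries other than IFN treated USP18-/- cells, and 18.8 and 16.1 CPM there. Its IFN effect was 0.10 in WT cells (SE 0.37, edgeR adjusted p = 0.97) and 4.23 in USP18-/- cells (SE 0.28, edgeR adjusted p = 6.0e-24). The centres of the MIR622 and PLPPR4 copies, shown for their different response in WT cells and chosen after their values were seen, both held the same ISRE letters, in capitals, on the reverse strand.
LTR71A at MIR622: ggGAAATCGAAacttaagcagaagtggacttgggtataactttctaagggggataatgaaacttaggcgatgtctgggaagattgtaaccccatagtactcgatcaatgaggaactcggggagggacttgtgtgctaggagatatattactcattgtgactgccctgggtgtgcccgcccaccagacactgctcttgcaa
LTR71A at PLPPR4: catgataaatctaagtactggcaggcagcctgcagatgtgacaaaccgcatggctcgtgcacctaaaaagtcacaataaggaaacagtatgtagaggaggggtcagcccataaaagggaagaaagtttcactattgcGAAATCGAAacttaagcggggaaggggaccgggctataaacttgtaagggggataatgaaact
The first is chr13:90294040-90294239 and the second chr1:99374211-99374410, plus strand.

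**Figure D2:**
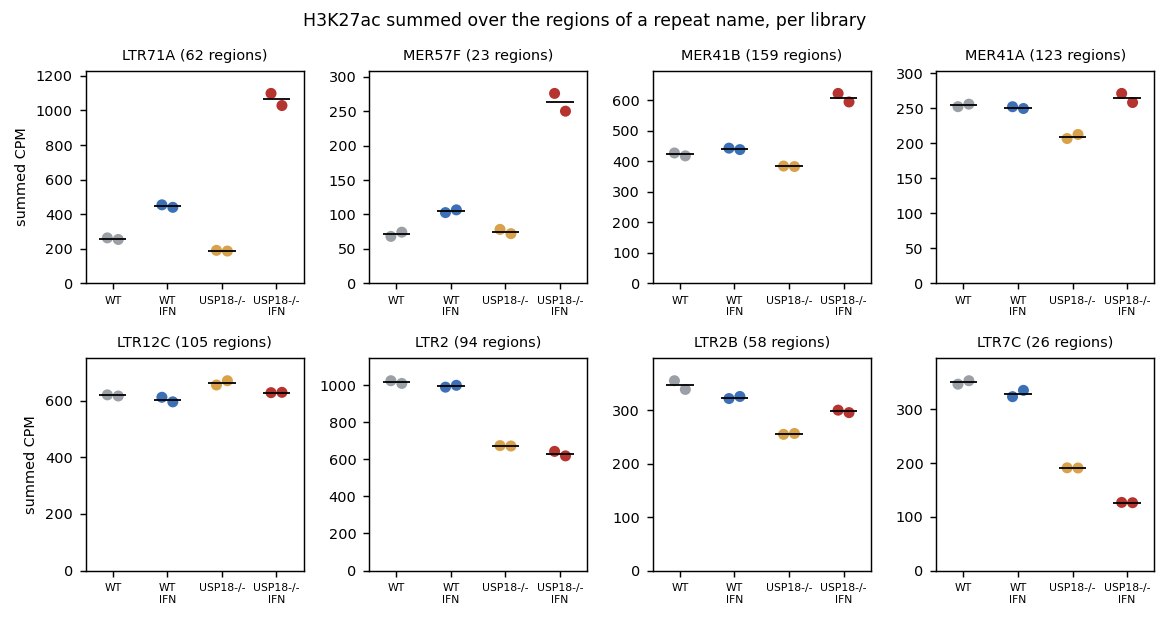
H3K27ac summed over all regions of a repeat name in each library, in CPM, for 8 repeat names and 4 groups. Points are libraries and bars are group means. LTR71A rose to 1099 and 1029 CPM with IFN in USP18-/- cells, LTR12C stayed between 596.4 and 671.2 CPM, and LTR7C was lowest in IFN treated USP18-/- cells at 126.7 and 126.2 CPM.

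MER57F had the next highest median among names with at least 20 tested regions. Of 22 tested MER57F regions 17 rose and none fell, with a median of 2.74 (interquartile range 1.40 to 3.51). The sum over 23 regions was 68.1 to 74.2 CPM in untreated WT cells, 102.7 and 106.7 CPM with IFN in WT cells, and 275.9 and 250.1 CPM with IFN in USP18-/- cells. MER57E1, MER57E2 and MER57E3 had fewer than 20 tested regions each. Taken as a group, which was chosen after the values were seen, 17 of 21 rose and 1 fell. Other MER57 names stood near 0, with medians of 0.08 for MER57B2 (11 of 69 higher), 0.03 for MER57A1 (4 of 62), -0.01 for MER57B1 (5 of 64) and -0.17 for MER57C2 (0 higher and 2 lower of 29). A MER57F copy on chromosome 17, 14662 bp from MTVR2, held 0.349 to 0.770 CPM in the 6 other libraries and 12.1 and 10.7 CPM in IFN treated USP18-/- cells. It reached 10 counts only in IFN treated USP18-/- libraries, and passed the filter through them alone. In MER57F, 8 of 23 regions held the NF-kB letters GGNNTTTCC, against 3.68% of all regions, and this copy is shown with its match in capitals.
MER57F at MTVR2: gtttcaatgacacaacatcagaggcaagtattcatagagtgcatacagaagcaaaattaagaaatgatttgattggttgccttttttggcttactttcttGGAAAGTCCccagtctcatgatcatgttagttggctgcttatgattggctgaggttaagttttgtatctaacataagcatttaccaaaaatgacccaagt
It is chr17:56870151-56870350, plus strand. Among called ERV1 regions with a mean of at least 10 counts, the largest rise was in a MER95 copy in an intron nearest to FARS2, which codes for a mitochondrial tRNA synthetase. It gave 1.14 and 1.09 CPM in untreated WT cells, 4.66 and 4.51 CPM with IFN, 0.698 and 0.962 CPM in untreated USP18-/- cells, and 48.2 and 43.9 CPM with IFN. The log2 fold change in USP18-/- cells was 5.78 (SE 0.22, edgeR adjusted p = 4.0e-39).

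LOR1 names rose at fewer copies. LOR1b had 17 of 57 and LOR1a 19 of 84 tested regions higher, with medians of 0.58 and 0.45. In WT cells 1 LOR1b and no LOR1a region rose, and their medians were -0.01 and 0.01. Over all LOR1 names, 4 of 153 tested regions rose in WT cells (2.61%, against 0.344% of all regions). In USP18-/- cells 39 of the 153 rose. Summed LOR1a was 464.8 to 472.8 CPM in the 4 WT libraries, 399.7 and 370.8 CPM in untreated USP18-/- cells and 863.8 and 805.8 CPM with IFN in USP18-/- cells. The groups of the sum did not overlap between IFN treated USP18-/- cells and the other 6 libraries.

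Among MER41 names, 53 of 259 tested regions rose and 10 fell, and MER41B accounted for 44 of the rises. MER41B had 141 tested regions with a median of 0.55 (interquartile range -0.01 to 1.35), while MER41A had 93 with a median of 0.05, of which 6 rose and 4 fell. Over scalings and other alternatives the MER41B median stayed between 0.42 and 1.15, and the MER41A median lay between -0.08 and 0.17. Summed MER41B was 426.8 and 417.3 CPM in untreated and 442.6 and 437.9 CPM in IFN treated WT cells. USP18-/- cells gave 383.9 and 382.3 CPM untreated and 621.9 and 593.9 CPM with IFN. Summed MER41A was 249.3 to 255.6 CPM in WT cells, 206.5 and 212.3 CPM in untreated USP18-/- cells and 270.9 and 257.9 CPM with IFN. MER41G and MER41-int each had 1 region higher, of 8 and 9 tested, MER41C had 1 of 3, and MER41E had none of 5.

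The MER41 region with the largest rise was a MER41C copy on chromosome 5, 100686 bp from the TSS of ICE1. It held 0.207 and 0.272 CPM in untreated WT, 1.59 and 0.615 CPM in IFN treated WT, 0.175 and 0.385 CPM in untreated USP18-/- and 7.10 and 7.89 CPM in IFN treated USP18-/- cells. Its rise in WT cells did not pass the test (log2 fold change 2.14, SE 0.64, edgeR adjusted p = 0.099), and in USP18-/- cells it did (4.71, SE 0.42, edgeR adjusted p = 7.1e-17). Its centre, shown for its tandem copies of the motif, held 5 ISRE matches on the reverse strand.
MER41C at ICE1: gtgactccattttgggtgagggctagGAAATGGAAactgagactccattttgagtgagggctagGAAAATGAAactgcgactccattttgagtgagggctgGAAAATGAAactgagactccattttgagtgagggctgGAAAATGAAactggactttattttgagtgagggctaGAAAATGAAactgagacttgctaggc
It is chr5:5523259-5523458, plus strand. A MER41A copy in an intron nearest to RNA5S16, on chromosome 1, was the most acetylated of the named MER41 regions. It gave 9.40 and 8.17 CPM in untreated WT cells, 14.7 and 15.3 CPM with IFN, 3.84 and 1.92 CPM in untreated USP18-/- cells and 55.2 and 46.3 CPM with IFN. Its rise in WT cells passed the adjusted p but stayed under 2-fold (log2 fold change 0.77, SE 0.17, edgeR adjusted p = 0.0039). It was 1 of 4 MER41A regions, of 123, with a GAS match. A MER41B copy on chromosome 3, nearest to MTHFD2P1, held 0.192 to 1.03 CPM in the 6 other libraries and 5.15 and 4.41 CPM in IFN treated USP18-/- cells. The centre of the MER41A copy is shown with its GAS match in capitals.
MER41A at RNA5S16: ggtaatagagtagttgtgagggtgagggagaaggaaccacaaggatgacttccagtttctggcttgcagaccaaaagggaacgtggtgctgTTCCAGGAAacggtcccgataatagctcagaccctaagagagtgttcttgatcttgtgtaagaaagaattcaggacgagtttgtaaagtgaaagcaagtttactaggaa
It is chr1:228684729-228684928, plus strand. A MER41B copy in an intron of DPYS, the dihydropyrimidinase gene, rose from 2.09 and 2.31 CPM to 22.5 and 18.2 CPM in USP18-/- cells. A MER41A copy 80942 bp from MKKS rose from 0.349 and 0.481 CPM to 5.06 and 2.53 CPM.

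Of 167 tested regions with LTR12 names, the LTRs of HERV9, 9 rose and 2 fell, which is 5.39% and 1.20%, and the median was -0.20. The split changed with the setting, giving 6 higher and 8 lower without IFN treated USP18-/- replicate 1, and 14 higher and 22 lower without the fold threshold. LTR12C, with 94 of them, had 4 higher and 1 lower, and its sum stayed between 596.4 and 671.2 CPM in the 8 libraries. LTR12F had 4 of 20 and LTR12D 1 of 16 higher, and LTR12, LTR12B, LTR12E and LTR12_ had none of 14, 2, 6 and 15. The largest rise was in an LTR12C copy 33539 bp from EREG, which codes for the growth factor epiregulin. It gave 1.86 and 2.36 CPM in untreated and 4.06 and 3.49 CPM in IFN treated WT cells, 1.57 and 1.44 CPM in untreated and 9.41 and 9.01 CPM in IFN treated USP18-/- cells. An LTR12C copy at -1131 bp from the TSS of GBP2, a guanylate-binding GTPase induced by IFN, held 2.269 to 2.996 CPM in the 6 other libraries and 10.7 and 12.2 CPM in IFN treated USP18-/- cells. Its log2 fold change was 2.26 (SE 0.23, edgeR adjusted p = 1.1e-13), and in WT cells it was -0.11 (SE 0.31, edgeR adjusted p = 0.96). An LTR12C copy in an intron 1269 bp from the TSS of TRIM5, a retroviral restriction factor gene, rose from 2.18 and 1.25 CPM to 7.90 and 10.5 CPM. An LTR12F copy nearest to MTHFD2P1 rose from 2.53 and 1.92 CPM to 6.04 and 6.38 CPM, and its centre is shown with its ISRE match in capitals.
LTR12F at MTHFD2P1: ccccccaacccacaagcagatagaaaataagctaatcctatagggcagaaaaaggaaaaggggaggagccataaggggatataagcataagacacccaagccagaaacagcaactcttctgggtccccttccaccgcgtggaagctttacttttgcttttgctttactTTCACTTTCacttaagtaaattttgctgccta
It is chr3:95706083-95706282, plus strand. A further LTR12F copy, nearest to LINC02534, rose from 1.05 and 0.962 CPM to 3.28 and 2.25 CPM. In 51 of 105 LTR12C windows some stretch of 100 bases recurred elsewhere in hg38, so reads of these copies can be shared, against 508 of all 4683 ERV1 windows.

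At the other end, LTR10E, LTR7C, LTR4, LTR2 and HERV17-int had the lowest medians, from -0.70 to -0.36. LTR10E had 8 of 31 tested regions lower and none higher, with sums of 183.3 and 169.3 CPM in untreated and 125.7 and 127.1 CPM in IFN treated WT cells. USP18-/- cells gave 147.6 and 142.9 CPM untreated and 95.5 and 94.8 CPM with IFN. Its sum was thus lower with IFN in both genotypes, with medians of -0.50 and -0.70. LTR7C, a variant of the LTR of HERVH, had 8 of 24 lower and none higher, and LTR4 had 10 of 39 lower and 1 higher. The largest single fall was in a MER31A copy in an intron nearest to AJAP1, which codes for a protein of adherens junctions. It held 33.6 and 36.3 CPM in untreated WT, 25.96 and 25.44 CPM in IFN treated WT, 52.9 and 53.1 CPM in untreated USP18-/- and 5.33 and 5.45 CPM in IFN treated USP18-/- cells. The log2 fold change was -3.30 (SE 0.14, edgeR adjusted p = 7.5e-36). The other regions within 1000000 bp of it had a median of -0.71, and the part of this in the result was not tested. An LTR7B copy near ENDOV, an endoribonuclease gene, fell from 15.1 and 14.3 CPM to 2.40 and 3.76 CPM. A MER67D copy near DEFA8P fell from 1.22 and 1.54 CPM to 0.178 and 0.282 CPM.

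**Figure D3:**
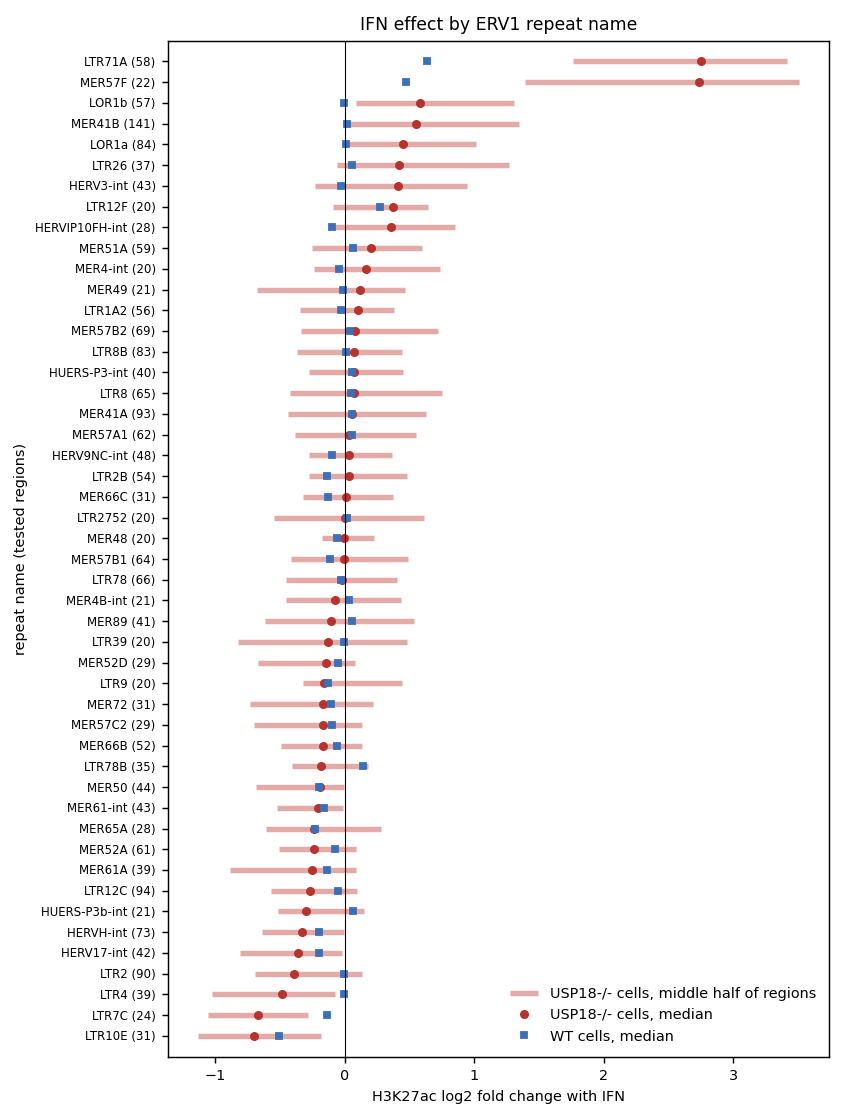
Log2 fold change of H3K27ac with IFN for the 48 ERV1 repeat names with at least 20 tested regions. Circles are medians in USP18-/- cells with interquartile ranges as bars, and squares are medians in WT cells. LTR71A and MER57F stood at 2.75 and 2.74 in USP18-/- cells, and the lowest name, LTR10E, at -0.70.

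The IFN effect itself was compared between the genotypes as a contrast of the same fit. It was larger in USP18-/- than in WT cells at 254 ERV1 regions (6.74%) and smaller at 122 (3.24%), where all regions had 4.66% and 2.51%. Of the 388 regions raised in USP18-/- cells, 236 also passed this test, and for the others a difference from WT cells was not shown. LTR71A had 36 of 58 regions with a larger effect, MER57F 9 of 22, LOR1a 20 of 84, LOR1b 10 of 57 and MER41B 16 of 141 (5 with DESeq2, and 9 without WT replicate 2 or untreated USP18-/- replicate 1), while MER41A had 3 larger and 3 smaller of 93. LTR12 names had 4 larger and 2 smaller of 167. Among the regions with large differences, the values were 4.43 at the MER57F copy near MTVR2 (SE 0.82, edgeR adjusted p = 2.2e-05) and 4.13 at the LTR71A copy near PLPPR4 (SE 0.51, edgeR adjusted p = 4.5e-10). The largest smaller effects were -2.85 at the MER31A copy near AJAP1 (SE 0.19, edgeR adjusted p = 8.4e-22), -2.15 at a MER52A copy near WNT11 and -2.10 at an LTR1A2 copy near C16orf45. At the WNT11 copy, WT cells held 6.09 and 6.08 CPM untreated and 10.0 and 7.79 CPM with IFN, and USP18-/- cells 4.89 and 5.39 CPM and then 1.60 and 1.78 CPM.

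Before any IFN, ERV1 regions differed between the genotypes mostly towards lower H3K27ac in USP18-/- cells. Of those tested 182 were higher (4.83%) and 599 lower (15.9%), where all regions had 5.66% higher and 10.8% lower, and regions over 3000 bp from a TSS had 5.17% and 12.7%. The split depended on scaling. It was 128 higher and 737 lower under the sum of counts, where all 123276 tested regions had 4957 and 16918. With TMM factors from distal regions it was 257 higher and 459 lower, where all regions had 10424 and 10122. LTR7C stood out, with 15 of 24 tested regions lower and none higher and a median of -1.22, and with 13 to 16 lower regions under the alternatives. Its sum was 346.7 and 353.1 CPM in untreated WT, 323.5 and 335.2 CPM in IFN treated WT, 191.1 and 190.8 CPM in untreated USP18-/- and 126.7 and 126.2 CPM in IFN treated USP18-/- cells. The 15 lower LTR7C regions lay on 9 chromosomes, and all 15 were also lower after IFN. LTR2, the LTR of HERV-E, had 32 of 90 lower and 2 higher on 18 chromosomes for the lower ones, and its sum went from 1024 and 1010 CPM in WT to 674.3 and 672.2 CPM in USP18-/- cells. LTR2B had 20 of 54 lower and 2 higher. LTR71A also began lower, with 10 of 58 regions lower and none higher, and 1 of these 10 was still lower after IFN. MER41 names had 6 higher and 29 lower of 259 and LTR12 names 8 and 20 of 167.

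The largest falls in untreated cells were at LTR2 copies. A pair of overlapping LTR2 windows on chromosome 6, nearest to LOC105374988, held 15.9 to 18.4 CPM in all 4 WT libraries and 0.349 to 1.33 CPM in all 4 USP18-/- libraries. Their log2 fold changes were -4.56 (SE 0.28, edgeR adjusted p = 3.5e-25) and -4.39 (SE 0.27, edgeR adjusted p = 6.1e-25), and they share reads. A MER57C2 copy on chromosome X nearest to BRDTP1 held 4.86 and 4.08 CPM in WT and 0.349 and 0.0962 CPM in untreated USP18-/- cells. With IFN it held 66 counts in WT and 1 in USP18-/- cells over both libraries, a ratio of 0.0137 with an exact 95% interval for counting error of 0.000342 to 0.0791. The other way, a MER101B copy on chromosome X rose from 0.103 and 0.272 CPM to 2.09 and 2.69 CPM (log2 fold change 3.55, SE 0.58, edgeR adjusted p = 4.3e-07). A MER61E copy near FTMT, the mitochondrial ferritin gene, held 0.723 and 0.0908 CPM in WT and 5.24 and 4.04 CPM in USP18-/- cells, and a MER50 copy near LOC102724908 held 0.517 and 0.545 CPM and 5.50 and 6.74 CPM.

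The surroundings moved with part of these differences. Of the 599 lower ERV1 regions, 151 lay where the median of the other regions within 1000000 bp was below -0.5, against 519 of 3760 tested ERV1 regions with at least 5 such neighbours. Among the 182 higher regions, 31 had a neighbour median above 0.5, against 129 of the 3760. The MER101B, MER50 and MER57C2 copies lay in such stretches, with neighbour medians of 1.26, 0.99 and -0.75. The LTR2 windows near LOC105374988 and the LTR2 copy near CXCL13 had neighbour medians of 0.05 and -0.07. The MER61E copy near FTMT, itself higher, had a neighbour median of -0.71. For IFN in USP18-/- cells, 4 of the 388 raised regions had a neighbour median above 0.5, against 31 of the 3760. Of the 223 lowered regions, 10 had a neighbour median below -0.5, against 38 of the 3760. The part of regional differences between the lines in these calls was not tested.

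**Figure D4:**
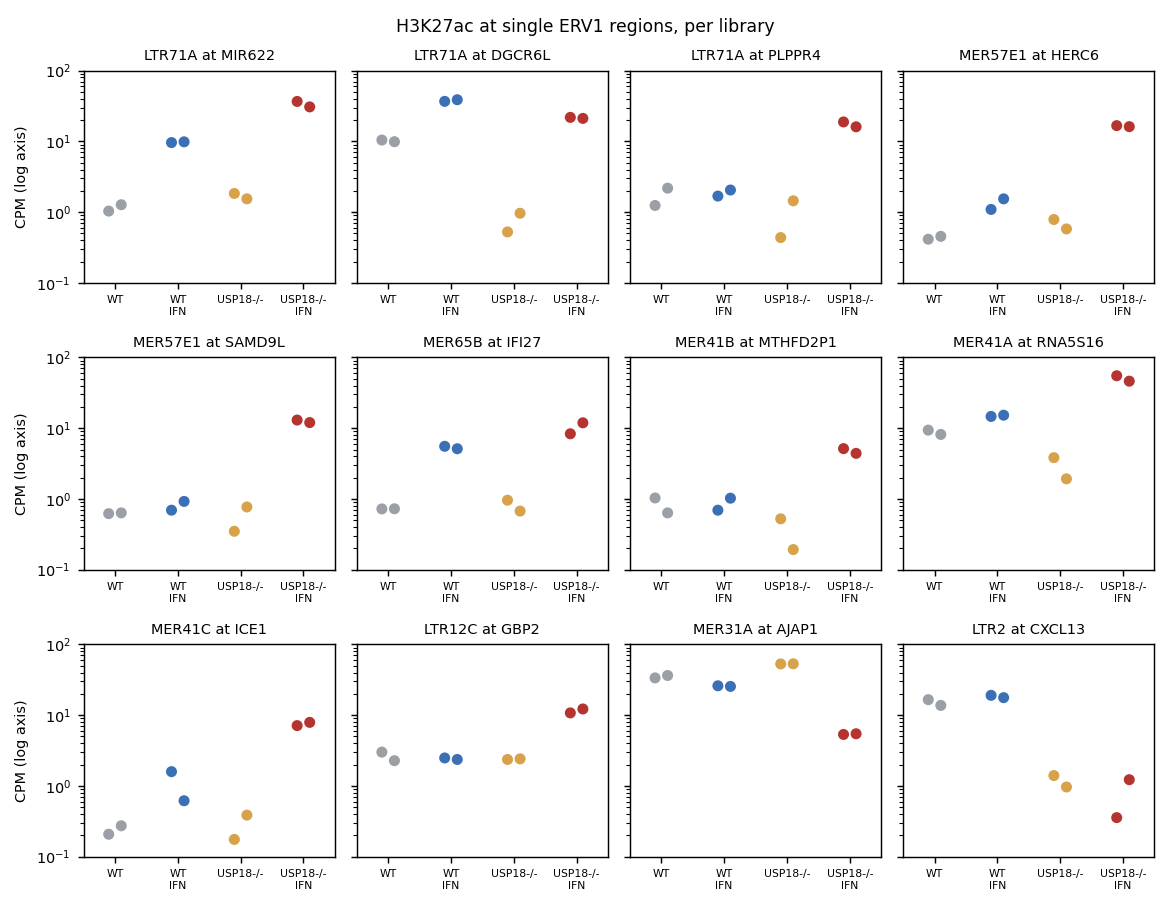
H3K27ac in each library at 12 ERV1 regions, in CPM on a log axis. Each point is a library of WT or USP18-/- cells, untreated or IFN treated. At the LTR71A copy near DGCR6L untreated USP18-/- cells lay at 0.524 and 0.962 CPM, below 10.4 and 9.89 CPM in WT cells, and at the MER31A copy near AJAP1 IFN treated USP18-/- cells lay at 5.33 and 5.45 CPM, below every other library.

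With IFN in both genotypes, USP18-/- cells had 422 ERV1 regions higher (11.2%) and 663 lower (17.6%) than WT cells, where all regions had 11.3% higher and 13.4% lower. The sum of counts gave 301 and 941, where all 123276 tested regions had 8757 higher and 24180 lower. Distal TMM factors gave 537 and 533, where all regions had 19038 and 12661. The direction of the excess among ERV1 regions thus rests on the scaling. LTR71A had 34 of 58 higher and 2 lower and MER57F 15 of 22 higher and none lower. MER41B had 28 higher and 11 lower of 141, MER41A 10 and 13 of 93, LTR12 names 14 and 20 of 167, LTR2 3 and 40 of 90, and LTR7C none and 20 of 24. This comparison shares libraries with both IFN comparisons and with the untreated comparison, so its counts are not independent of theirs. The largest excess was at the MER57F copies near MTVR2 (4.62, SE 0.35, edgeR adjusted p = 9.2e-21) and OTOGL (4.18, SE 0.37, edgeR adjusted p = 4.5e-17). A MER57B2 copy at -97103 bp from PIK3CG, which codes for a catalytic subunit of PI3-kinase, held 0.991 and 0.923 CPM in WT and 17.5 and 15.0 CPM in USP18-/- cells. An LTR2 copy nearest to CXCL13, a B cell chemokine gene, held 19.03 and 17.64 CPM and 0.355 and 1.22 CPM. An LTR26 copy near BACE1-AS held 21.01 and 17.64 CPM and 0.799 and 0.939 CPM.

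Motif letters were counted in the central 200 bp on both strands and are descriptions of the copies. They were TTCNNTTTC for ISRE, TTCNNNGAA for GAS, GGNNTTTCC for NF-kB, TGANTCA for AP-1, GAGGAAGT for PU.1 and ATTGCATCA for Chop. Among the 388 regions raised with IFN in USP18-/- cells 31.96% held the ISRE letters, against 9.52% of 3383 tested regions that were not raised and 9.71% of all regions. Without LTR71A the share among raised regions was 28.0%. GAS was in 13.4% of raised and 6.68% of other regions, NF-kB in 10.1% and 3.58%, AP-1 in 11.6% and 11.6%, and PU.1 in 7.22% and 7.86%. MER41B gave 91 of the 278 tested regions with GAS, and 34 of the 52 of them that rose. Chop was in none of the 388 and in 9 of 3383.

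Within a name the letters separated the copies only in part. Of tested LTR71A copies with ISRE 28 of 33 rose, with a median of 3.03, and of those without it 17 of 25 rose, with a median of 2.48. Copies without it had fewer counts, with a median mean of 20.8 against 58.4 counts. Of MER41B copies with GAS 34 of 91 rose (37.4%, median 0.81), against 10 of 50 without (20.0%, median 0.43), at 13.1 and 19.1 median counts. MER41A held GAS in 4 of 123 regions, and 2 of the 4 rose, against 4 of 89 tested copies without it. LTR2B held ISRE in 63.8% of its regions, yet 1 of 34 such copies rose and their median was -0.03. In LTR2B 1 of 58 regions had the full ISRE of TTTCNNTTTC, against 32 of 62 in LTR71A. LOR1 copies with ISRE or the variant rose at 33 of 120 and those without at 6 of 33. LTR7C held the variant in 57.7% and LTR2 in 68.1% of regions, and none of 24 LTR7C regions rose. LTR10E held PU.1 letters in 75.8%, LTR26 and LTR8B AP-1 letters in 56.2% and 55.9%, with 9 of 37 and 5 of 83 tested copies raised. A match is not a binding site, and no cause was tested.

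**Figure D5:**
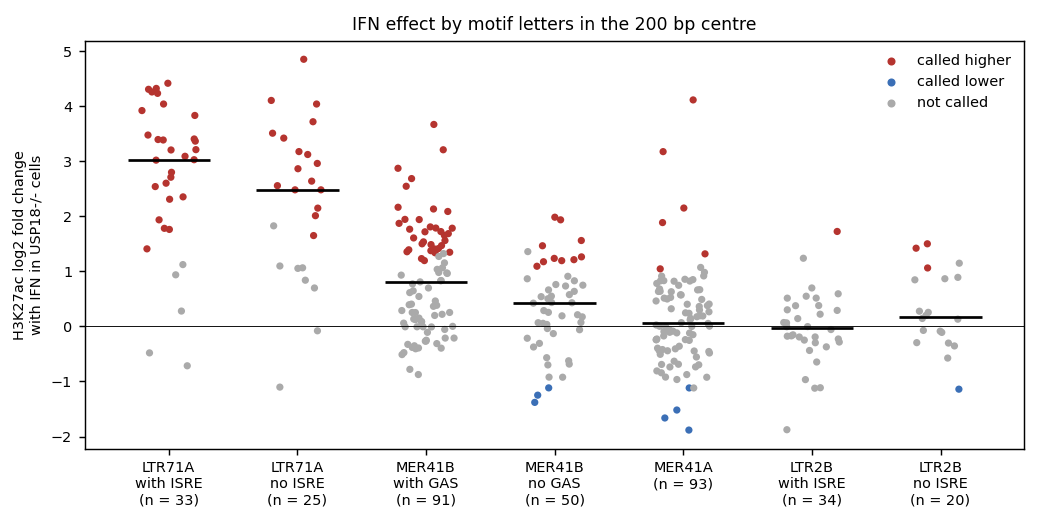
Log2 fold change of H3K27ac with IFN in USP18-/- cells for single copies of LTR71A, MER41B and LTR2B with and without the named motif letters in the 200 bp centre, and for MER41A. Points are regions, colored by call, and bars are medians. LTR71A medians were 3.03 and 2.48, MER41B medians 0.81 and 0.43, and the LTR2B median with ISRE letters was -0.03.

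ERV1 regions nearest to ISGs were counted over a list of 90 ISGs, of which 23 were the nearest gene of a tested ERV1 region. Of these 30 regions 1 rose with IFN in WT cells, 10 rose in USP18-/- cells and none fell in either. A larger effect in USP18-/- cells was called at 9. Over all tested regions 0.344% rose in WT and 7.14% in USP18-/- cells, and 4.66% had a larger effect. The copies near IFI27, GBP2 and TRIM5 lay at -1166, -1131 and 1269 bp from the TSS, and the part of promoter signal in them was not tested. Of 87 ISG TSS regions tested, 39 rose in WT and 77 in USP18-/- cells. Beside the copies near IFI27, GBP2 and TRIM5, a MER57E1 copy in an intron 4076 bp from the TSS of HERC6, an IFN-induced HERC family gene, held 0.413 and 0.454 CPM in untreated and 1.09 and 1.54 CPM in IFN treated WT cells. In USP18-/- cells it held 0.785 and 0.577 CPM and then 16.7 and 16.1 CPM (log2 fold change 4.56, SE 0.28, edgeR adjusted p = 3.4e-25). A MER57E1 copy at -17222 bp from the TSS of SAMD9L, an IFN-induced antiviral gene, held 0.349 to 0.923 CPM in the 6 other libraries and 13.05 and 12.02 CPM in IFN treated USP18-/- cells. This copy reached 10 counts only in IFN treated USP18-/- libraries, and passed the filter through them alone. The TSS regions of HERC6 and SAMD9L rose by 2.45 and 1.97 on the log2 scale in USP18-/- cells.

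The copies near genes known for MER41 or LTR12 were few. AIM2, a DNA sensor gene, had a MER61-int copy at 20430 bp, with 13.9 and 13.4 CPM in untreated WT and 4.63 and 4.52 CPM in untreated USP18-/- cells, and its IFN effect did not pass the test in either genotype. The other regions within 1000000 bp of it had a median of -1.002 between the untreated genotypes. SECTM1 had a MER41G copy with 0.385 to 1.86 CPM, and a log2 fold change with IFN in USP18-/- cells of 0.00 (SE 0.55, edgeR adjusted p = 1.0). No tested ERV1 region had APOL1, IFI6 or GBP5 as its nearest gene.

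More widely, the nearest gene's TSS region was also raised for 30 of 209 ERV1 regions raised in USP18-/- cells (14.4%) and for 91 of 1837 other tested ERV1 regions (4.95%), counting copies over 2000 bp from the TSS. For LTR71A it was 1 of 23 and for MER41 names 2 of 36. A gene could count through more than 1 region, as HERC6 and SAMD9L did, and regions outside ERV1 were not counted in this way. Nearness does not show which gene a copy acts on. A list for silencing of endogenous retroviruses held genes such as TRIM28 and SETDB1, and also the restriction factor gene SAMHD1. The TSS regions of its 20 genes gave no call by edgeR with IFN in either genotype. Between untreated genotypes there was no call in either direction. At an unadjusted p under 0.05 the counts were 1 higher and 2 lower with IFN in WT cells. They were 5 and 5 with IFN in USP18-/- cells and 11 and 2 between untreated genotypes. Some of these changes passed the adjusted p and stayed under 2-fold. With IFN in USP18-/- cells SAMHD1 (0.81, SE 0.09, edgeR adjusted p = 9.1e-13) and SETDB1 (0.49, SE 0.11, edgeR adjusted p = 0.00038) were higher. UHRF1 (-0.65, SE 0.16, edgeR adjusted p = 0.00086) and EHMT2 (-0.59, SE 0.14, edgeR adjusted p = 0.0005) were lower. SETDB1 was lower in untreated USP18-/- cells by less than 2-fold (log2 fold change -0.54, SE 0.11, edgeR adjusted p = 6.4e-05), and TRIM28 was higher (0.57, SE 0.11, edgeR adjusted p = 1.9e-05). The largest untreated differences on the list were at HDAC1 (0.93, SE 0.12, edgeR adjusted p = 7.8e-10) and SAMHD1 (0.87, SE 0.10, edgeR adjusted p = 1.2e-12). With IFN in both genotypes SAMHD1, a restriction factor gene that codes for a dNTPase, was higher in USP18-/- than in WT cells (1.46, SE 0.09, edgeR adjusted p = 4.6e-25). Of 10 genes of the ISGF3 pathway, 4 rose with IFN in WT and 6 in USP18-/- cells, with STAT2 at 0.33 (SE 0.13, edgeR adjusted p = 0.38) and 1.52 (SE 0.12, edgeR adjusted p = 1.7e-19).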

How the data were processed

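H3K27ac was measured by ChIP-seq in 2 libraries of each of 4 groups. The deposited values were raw tags per window, that is estimated counts that need not be whole. The authors mapped reads to hg38 with Bowtie2, pooled ATAC-seq peaks and counted tags with HOMER in windows of 1000 bp, without normalization. Fractions of tags were rounded to whole counts. Tests used edgeR 4.0.16 in R 4.3.3 with TMM factors, 1 mean per group in a single fit, and the quasi-likelihood test. Benjamini-Hochberg adjustment ran over the 123276 regions in which 2 or more of the 8 libraries reached 10 counts. The common biological coefficient of variation was 0.0737. DESeq2 1.42.0 was an alternative, with other scalings, filters and thresholds, unrounded values, a replicate block and each library left out.

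Members, gene lists, motifs and tests were chosen with earlier results of these data known. Regions were named by rule: those nearest to AIM2, APOL1, IFI6, SECTM1, GBP2 or GBP5, the 3 largest rises and falls per comparison among called regions whose mean reached 10 counts (with libraries that do not overlap, except for the difference of IFN effects), the 5 largest rises among MER41 and among LTR12 names, and the 5 smallest adjusted p near ISGs. Repeat names were named where highest or lowest among those with at least 20 tested regions, other exceptions being said. Sequences and recurrence of 100-base stretches were read from hg38 by exact match. Promoter regions lay within 1100 bp of a GENCODE TSS in 99.2%, which checked the build. In simulated data for IFN in USP18-/- cells over 123276 regions, 144 of 200 regions changed 3-fold were called. Among them were 88 of the 89 whose mean reached 30 counts, and 4 unchanged regions were called. All simulated regions had the same spread and only 200 changed, so these counts are not error rates of the real calls. ERV1 windows overlapped another window in 24.2%. No value columns were left unmapped (0). Input libraries were not used here, and some items that met these rules are not reported here.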

Additional observations from a re-analysis of the deposited data

Results flagged for a closer look

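IFN effects that differed between USP18-/- and WT cells by a test of the difference itself (edgeR's quasi-likelihood test, Benjamini-Hochberg adjustment, over 2-fold) were listed. Among ERV1 regions 254 had a larger and 122 a smaller effect in USP18-/- cells, among MER41 regions 20 and 5 (6 and 5 with DESeq2, 11 and 4 without WT replicate 2, 13 and 4 without untreated USP18-/- replicate 1), and among LTR12 regions 4 and 2. As differences of log2 fold changes, USP18-/- minus WT, LTR71A copies gave 1.25 near MIR622, 2.96 near DGCR6L and 4.13 near PLPPR4. MER57E copies gave 3.22 near FAM225A, 2.99 near HERC6 and 4.13 near SAMD9L. MER57F copies gave 2.52 near OTOGL and 4.43 near MTVR2, the MER57B2 copy near PIK3CG gave 2.39 and the MER95 copy near FARS2 gave 3.75. MER41B copies gave 3.61 near MTHFD2P1 and 2.50 near DPYS, and MER41A copies 3.34 near RNA5S16 and 3.01 near MKKS. LTR12 copies gave 1.33 near MTHFD2P1, 1.71 near TRIM5, 1.77 near EREG and 2.37 near GBP2. Smaller effects were -1.66 for LTR7B near ENDOV, -2.85 for MER31A near AJAP1, -2.10 for LTR1A2 near C16orf45 and -2.15 for MER52A near WNT11. The differences near MIR622, MTHFD2P1 (LTR12F) and OTOGL were lost under 10, 11 and 6 alternatives, DESeq2 among them.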

How the results depend on the processing

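Counts of called ERV1 regions are given for higher and lower together, unless said. Dropping the fold threshold gave 55 regions for IFN in WT cells, 1194 for untreated USP18-/- against WT cells, 965 for IFN in USP18-/- cells and 14 raised beside 22 lower LTR12 regions. DESeq2 gave 17 for IFN in WT cells, where it left 2672 of 3771 regions without an adjusted p. A minimum of 30 counts gave 35 raised MER41 regions of 82 tested. Other alternatives kept these counts within 1.5 times. Leaving out a library gave 16 to 30 regions for IFN in WT cells, 672 to 780 for untreated USP18-/- against WT cells, 986 to 1097 with IFN in both, 567 to 609 for IFN in USP18-/- cells and 302 to 353 for the difference, and 42 to 53 raised MER41 and 6 to 10 raised LTR12 regions. For IFN in WT cells the lowest were 16 without WT replicate 1, 17 without WT replicate 2 and 18 without IFN treated WT replicate 1. The sum of counts put the median of all regions at -0.16 for untreated cells and -0.27 with IFN in both. Its ERV1 split was 347 higher and 307 lower for IFN in USP18-/- cells, and 206 larger and 164 smaller for the difference. Over all regions these splits were 7454 and 7898, and 4670 and 4779. For LTR12 it was 8 higher and 7 lower. Same-numbered replicates showed little common deviation (correlations 0.00191 to 0.0584). Counting noise at low regions weakens this check, so a pairing by number is not excluded. With the replicate block the counts were 29, 774, 1086, 611 and 377, and 53 and 9 for MER41 and LTR12, and it moved no count by over 1.5 times. Of 111 comparisons of the regions chosen by rule, 94 kept the call under every alternative that gave a value. Over all alternatives 1871 values kept their side of the thresholds, 63 lost the call and none changed direction. In the whole window of 1000 bp, the shares of ERV1 regions with a match were 35.0% for ISRE, 28.8% for GAS, 16.5% for NF-kB, 32.3% for AP-1, 12.6% for PU.1 and 0.854% for Chop. Depth limited low regions: the median tested ERV1 region had a mean of 18.5 counts.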

Other observations

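HERV3-int, the internal part of HERV3, had 7 regions higher and 5 lower of 43 tested with IFN in USP18-/- cells, and 2 higher and 4 lower of 22 when 1 window was kept per chain of overlapping windows. Its sum was 617.8 to 632.9 CPM in WT cells, 541.2 and 498.8 CPM in untreated and 664.7 and 627.3 CPM in IFN treated USP18-/- cells. In untreated USP18-/- against WT cells, LTR26 had 6 of 37 tested regions higher and 2 lower, 3 higher and 2 lower of 32 with 1 window per chain, and 11 higher and 2 lower with TMM factors from distal regions. Its sum was 178.2 to 195.4 CPM in the 4 WT libraries, 232.9 and 218.5 CPM in untreated and 288.8 and 283.8 CPM in IFN treated USP18-/- cells. HERVH-int had 70 of 90 windows with some recurring stretch of 100 bases. Of the 388 ERV1 regions raised with IFN in USP18-/- cells, 30 had any recurring stretch, and 26 held under 10 counts in every library of the other 3 groups. These 26 passed the filter only through the IFN treated USP18-/- libraries.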
